A study of Mus musculus with 8 samples.

Results

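Secreted antimicrobial and mucosal defence proteins were compared between luminal progenitors (LP) and mature luminal cells of the mouse mammary gland through 10 genes. These were Ltf, Lcn2, Wfdc17, Wfdc18, Wfdc2, Slpi, Pigr, Lyz2, Saa1 and Saa2, chosen by symbol from a table of 24594 genes listed by Entrez Gene ID. All 10 were in the table. Wfdc17 was picked for its difference between LP and mature libraries, so its difference is given as a description with no test.

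RNA came from 4 LP and 4 mature libraries (labelled luminal differentiated) of the virgin gland of wild type C57BL/6J mice, none of which had been treated. The methods of the study give an age of 12 to 20 weeks for its mice and biological replicates for its RNA sequencing, although for 3 samples per condition, and the labels do not say which animals gave which library. The sample descriptions do give the LP and the mature library of each replicate a number in common, without saying what it marks, so each such pair may share a source, and whether the 4 replicates are separate animals is not stated. If they are not, the p-values measure only the spread between these samples. Cells carrying blood or endothelial lineage antigens were excluded by an antibody stain, and the luminal cells were sorted by c-Kit. The high fraction was taken as LP and the low fraction as mature. EpCAM, CD49f and CD14 are also named in the labels as sorting markers.

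The epithelium of the mammary gland lines ducts that open to the outside, and like other mucosal surfaces it secretes proteins that limit bacteria. Lactoferrin (Ltf) binds free iron, and lipocalin 2 (Lcn2) captures the siderophores with which bacteria collect iron. Proteins with a WAP domain, a small cysteine-rich fold named after whey acidic protein, include Slpi, an inhibitor of neutrophil elastase that is also antibacterial, and Wfdc2, Wfdc17 and Wfdc18. The polymeric immunoglobulin receptor (Pigr) carries IgA across the epithelium into the secretion, lysozyme (Lyz2) cuts the bacterial cell wall, and Saa1 and Saa2 are acute-phase proteins. In the mammary gland several of these proteins are also known as components of milk, and luminal progenitors are regarded as the precursors of the milk-secreting alveolar cells.

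The 4 WAP-domain genes of the chosen set lie in 2 places. Wfdc17 (chr11:83704056-83706269 of GRCm38) and Wfdc18 (chr11:83709004-83711360) are neighbours with 2734 bases and 0 protein-coding genes between them, and their longest protein-coding transcripts are 82.7% identical over 509 aligned bases. Slpi (chr2:164354070-164356507) and Wfdc2 (chr2:164562715-164568510) lie 206207 bases apart with 7 protein-coding genes between them. The other genes are Lcn2 (chr2:32384637-32387739), Ltf (chr9:111019292-111042766), Pigr (chr1:130826684-130852249), Lyz2 (chr10:117277541-117282272), Saa1 (chr7:46740497-46743181) and Saa2 (chr7:46751833-46754313).

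The 250 bases upstream of the transcription start are shown for the neighbours Wfdc17 and Wfdc18, for Ltf, and for Wfdc2, whose RNA differed in the opposite direction. All are RefSeq sequences of GRCm38.p6, read from 5′ to 3′ on the strand of the gene, which is the plus strand for each. They span chr11:83703806-83704055 for Wfdc17, chr11:83708754-83709003 for Wfdc18, chr9:111019042-111019291 for Ltf and chr2:164562465-164562714 for Wfdc2. Capitals mark matches to the motifs searched for, on either strand.
Wfdc17: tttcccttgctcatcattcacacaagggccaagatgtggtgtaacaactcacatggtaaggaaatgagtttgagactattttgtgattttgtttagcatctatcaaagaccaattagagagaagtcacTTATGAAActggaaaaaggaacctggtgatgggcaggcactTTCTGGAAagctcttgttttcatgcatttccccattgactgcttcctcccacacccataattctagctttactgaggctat
Wfdc18: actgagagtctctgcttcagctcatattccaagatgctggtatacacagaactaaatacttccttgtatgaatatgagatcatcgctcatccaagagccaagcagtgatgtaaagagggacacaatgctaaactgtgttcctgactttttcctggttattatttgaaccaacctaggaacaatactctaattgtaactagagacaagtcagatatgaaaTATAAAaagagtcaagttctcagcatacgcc
Ltf: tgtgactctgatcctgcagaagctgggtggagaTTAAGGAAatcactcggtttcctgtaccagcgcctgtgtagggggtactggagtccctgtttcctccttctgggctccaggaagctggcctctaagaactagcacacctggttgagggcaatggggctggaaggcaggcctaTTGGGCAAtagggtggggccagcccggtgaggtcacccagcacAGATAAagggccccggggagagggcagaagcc
Wfdc2: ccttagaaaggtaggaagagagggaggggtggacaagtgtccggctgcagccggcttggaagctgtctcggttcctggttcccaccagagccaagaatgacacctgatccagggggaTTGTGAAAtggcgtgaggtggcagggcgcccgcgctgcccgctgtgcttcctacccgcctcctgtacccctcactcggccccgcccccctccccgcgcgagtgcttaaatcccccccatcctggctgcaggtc

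The C/EBP motif was searched for as TTNNGNAA. The STAT motif was TTCNNNGAA, the TATA box was TATAAA, and the NF-kB consensus is given by its name alone. For GATA factors the letters were AGATAA. Among the 4 printed windows, the capitals are C/EBP matches in Ltf, Wfdc17 and Wfdc2, an additional GATA match 32 to 27 bases before the start in Ltf, and a TATA box match 31 to 26 bases before the start in Wfdc18. A C/EBP match was present upstream of 8 of the 10 genes and of 36.9% of 27025 mouse promoters of the same length. The TATA box occurred in 1 of the 10 and in 13.0% of all promoters, and the GATA motif in 1 of the 10 and in 10.3%. The NF-kB and STAT motifs had 0 matches upstream of the 10 genes, against 7.0% and 7.2% of all promoters. The GC content of these windows ran from 38.4% in Wfdc18 to 64.8% in Wfdc2. Matches to different motifs did not overlap in the 4 printed windows. A match describes letters in a window and not a binding site.

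The libraries held 5510863 to 7089597 counts in LP and 4410049 to 7791593 in mature cells. The sort was reflected in the RNA of its own markers. Kit had 521.8 to 832.4 CPM in LP (counts in 1000000 of the normalized library total) and 41.2 to 178.7 CPM in mature libraries, Cd14 had 12142 to 18322 CPM and 85.9 to 320.9 CPM, and the progesterone receptor gene Pgr had 11.2 to 41.0 CPM and 140.0 to 194.7 CPM. Areg, another mature cell gene, had 0 to 3.16 CPM in LP and 3.01 to 48.3 CPM in mature libraries, and its fractions overlapped through mature replicate 4. Its log2 fold change of -4.53 was -5.63 without LP replicate 2. Ptprc, which encodes CD45, a lineage antigen stained for the sort, had at most 0.278 CPM in any library. Of 10 lymphocyte and plasma cell markers 6 had no count, and the 10 summed to 6.04 to 13.6 CPM in LP and 5.06 to 20.9 CPM in mature libraries, mostly from Mzb1, with a mean of 8.08 CPM in LP and 11.6 CPM in mature cells. The 10 neutrophil markers summed to at most 4.44 CPM.

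Ltf was higher in LP by more than an order of magnitude. It had 14398, 12304, 9445 and 13990 CPM in LP replicates 1 to 4, and 164.2, 373.3, 1018 and 927.4 CPM in mature replicates 1 to 4. The lowest LP library stood above the highest mature library, so the fractions did not overlap. The LP mean was 12534 ± 2251 CPM (SD, n = 4) and the mature mean 620.6 ± 416.8 CPM (SD, n = 4). The log2 fold change was 4.34 ± 0.54 (SE, edgeR quasi-likelihood test, adjusted p = 0.000587), a 20.2-fold difference. Reads of Ltf alone made up 1.03% to 1.56% of all counts in LP libraries, and 0.015% to 0.0987% in mature libraries. In bulk samples, fewer cells of a type and less RNA per cell cannot be told apart.

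Lcn2, the other iron-withholding gene, was also higher in LP. It had 890.5, 882.5, 860.8 and 901.9 CPM in LP replicates 1 to 4, and 53.4, 72.2, 261.4 and 126.1 CPM in mature replicates 1 to 4. The LP libraries lay within a narrow range, with a mean of 883.9 ± 17.4 CPM (SD, n = 4), while the mature libraries spread around 128.3 ± 94.0 CPM (SD, n = 4). The fractions did not overlap. The log2 fold change was 2.78 ± 0.43 (SE, edgeR adjusted p = 0.00149), and without mature replicate 3 it was 3.42.

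Wfdc18, the WAP-domain gene beside Wfdc17 on chromosome 11, was likewise higher in LP. Its values were 8404, 11043, 7565 and 10063 CPM in LP replicates 1 to 4, and 149.2, 223.3, 1564 and 727.6 CPM in mature replicates 1 to 4. The fractions did not overlap, and the mature libraries differed among themselves by more than the LP libraries in proportion to their mean (9269 ± 1574 CPM in LP, 666.1 ± 651.6 CPM in mature cells, SD, n = 4). This was a log2 fold change of 3.80 ± 0.67 (SE, edgeR adjusted p = 0.00277), and without mature replicate 3 it was 4.68.

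Wfdc17, its neighbour, had far less RNA per kilobase of exon, with a mean of 95.8 CPM per kilobase in LP against 17790 for Wfdc18. It had 33.5, 52.9, 66.7 and 51.1 CPM in LP replicates 1 to 4, and 1.27, 2.63, 1.73 and 0.753 CPM in mature replicates 1 to 4. The mature values rest on 36 counts in all, against 1369 counts in LP. The log2 fold change for which it was picked was 5.05. Counts of Wfdc17 amounted to 0.399% to 0.882% of those of Wfdc18 in LP libraries. In mature libraries they amounted to 0.848%, 1.18%, 0.111% and 0.104%, so the pair did not keep a fixed ratio. Transcripts of the pair share no stretch of 51 bases, the read length, and 5 of the 508 stretches of 26 bases in Wfdc17, close to the shortest reads kept, also occur in Wfdc18.

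Wfdc17 is also known as a gene of activated macrophages, so macrophage and monocyte markers were set beside it. The 14 markers summed to 97.3 to 145.1 CPM in LP libraries and 82.3 to 120.9 CPM in mature libraries. Most of this came from Cx3cr1, with a mean of 78.4 CPM in LP and 68.7 CPM in mature cells, and Cd68, with 42.5 and 22.2 CPM. Csf1r had means of 4.87 CPM in LP and 4.23 CPM in mature cells. C1qa, Tyrobp and Ccr2 had no count, and 11 of the 14 had a mean under 1 CPM. Lyz2, which macrophages express strongly, had 4 counts over the LP libraries and 5 over the mature libraries, a value made uncertain by sequence shared with Lyz1. Whether macrophages contributed to the Wfdc17 counts was not tested.

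Slpi, the elastase inhibitor, was higher in LP. It had 640.3, 514.5, 869.7 and 737.9 CPM in LP replicates 1 to 4, and 24.8, 70.9, 89.4 and 111.5 CPM in mature replicates 1 to 4. The lowest LP library was above the highest mature library, and the means were 690.6 ± 150.4 CPM and 74.1 ± 36.9 CPM (SD, n = 4). This was a log2 fold change of 3.22 ± 0.40 (SE, edgeR adjusted p = 0.000573).

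Wfdc2 differed in the direction opposite to the other tested genes of the chosen set. It was lower in LP, with 56.5, 27.2, 34.5 and 28.7 CPM in LP replicates 1 to 4, and 283.6, 271.1, 89.1 and 255.7 CPM in mature replicates 1 to 4. The fractions did not overlap, although mature replicate 3 stood well below the other mature libraries. This was a log2 fold change of -2.61 ± 0.37 (SE, edgeR adjusted p = 0.00103), from means of 36.7 ± 13.6 CPM and 224.9 ± 91.3 CPM (SD, n = 4). Slpi, which is also of the chosen WAP-domain genes and lies in the same region of chromosome 2, differed in the opposite direction.

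Pigr, the IgA transporter, was higher in LP. It had 46.0, 63.1, 52.0 and 94.6 CPM in LP replicates 1 to 4, and 3.38, 3.68, 7.36 and 12.4 CPM in mature replicates 1 to 4. The fractions did not overlap. The means were 63.9 ± 21.7 CPM and 6.69 ± 4.19 CPM (SD, n = 4), and the log2 fold change was 3.23 ± 0.43 (SE, edgeR adjusted p = 0.000742).

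**Figure D1:**
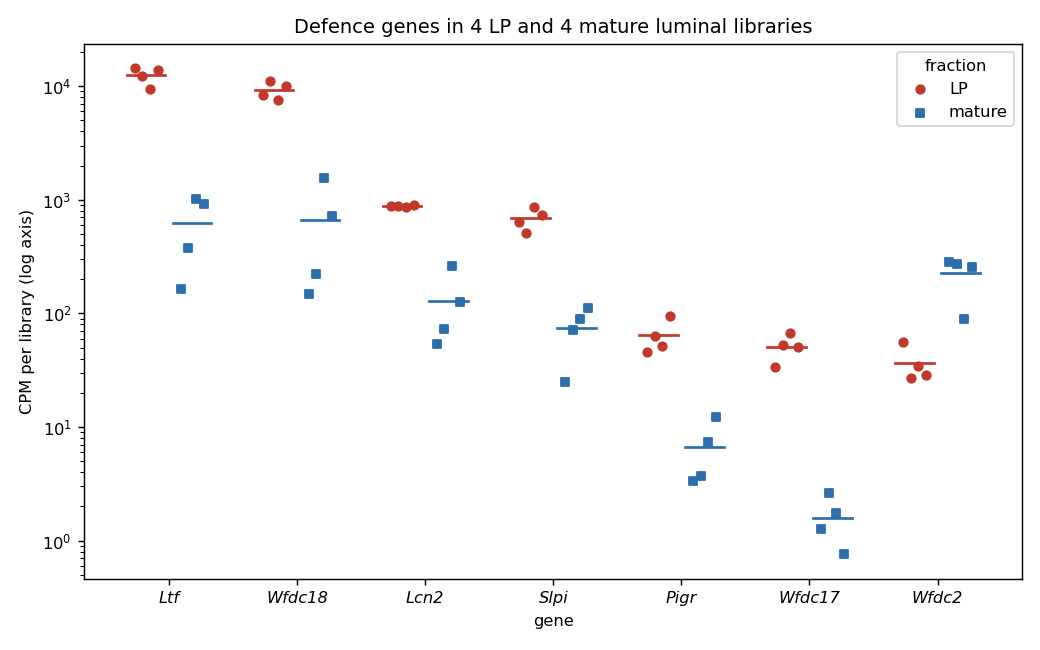
CPM of the 7 genes that passed the filter on low counts, on a log axis, with 1 point per library (red circles LP, blue squares mature) and a line at the mean of 4 libraries. The LP points lie above the mature points for 6 genes, and for Wfdc2 the mature points, from 89.1 to 283.6 CPM, lie above the LP points, from 27.2 to 56.5 CPM.

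Lyz2, Saa1 and Saa2 did not pass the filter on low counts and were not tested. Lyz2 reached at most 0.603 CPM in any library, with 0 counts in 4 of the 8. Saa1 had 2 and 15 counts in LP replicates 1 and 2, and 0 in the other 6 libraries, and 3 counts over the 4 mature libraries would correspond to 0.123 CPM. Saa2 had 0 counts among 51484087, which allows a level of up to 0.111 CPM over the LP and 0.123 CPM over the mature libraries, counting error only. These genes have near-identical copies. Of the 51-base stretches in Saa1 transcripts 30.9% also occur in another gene, of those in Saa2 29.5%, and of those in Lyz2 14.8%, the latter all in Lyz1. How reads matching several genes were counted is not given in the sources used here, so their values are uncertain. Under 0.5% of the 51-base stretches of each of the 7 other genes are shared with another gene.

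Apart from Wfdc17, 6 of the 9 genes were tested, with 5 higher in LP and only Wfdc2 higher in mature cells. Over all 12816 genes tested, 10.9% passed as higher in LP, and 13.8% as higher in mature cells, at the same threshold, an adjusted p under 0.05. The 5 genes higher in LP had non-overlapping libraries, as did 14.0% of all tested genes in that direction, and so had Wfdc2, with 15.5% of all tested genes in the other. The 6 tested genes had at least 14 counts in every library, while Lyz2, Saa1 and Saa2 had few or no counts in both fractions. The 10 genes were chosen with earlier results known, so these counts are a description. In each of the 14 alternative analyses the same numbers, 5 and 1, were obtained.

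Levels of different genes were compared per length of exon. The counting program and its annotation are not given, so whether all counts of a gene fall in these exons is not known. In LP, Wfdc18 came first with 17790 CPM per kilobase of protein-coding exon, followed by Ltf (4473), Lcn2 (715.1), Slpi (585.3), Wfdc17 (95.8), Wfdc2 (37.5) and Pigr (15.9). In mature cells the order in CPM per kilobase was Wfdc18 (1279), Wfdc2 (229.7), Ltf (221.5), Lcn2 (103.8), Slpi (62.8), Wfdc17 (2.99) and Pigr (1.66). Wfdc2 was thus sixth in LP and second in mature cells. Between neighbours in this order, the libraries overlapped in LP only for Lcn2 and Slpi. In mature cells they overlapped between all neighbours except Slpi and Wfdc17. All 10 genes together took 2.07% to 2.68% of the counts of an LP library and 0.0621% to 0.294% of those of a mature library.

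**Figure D2:**
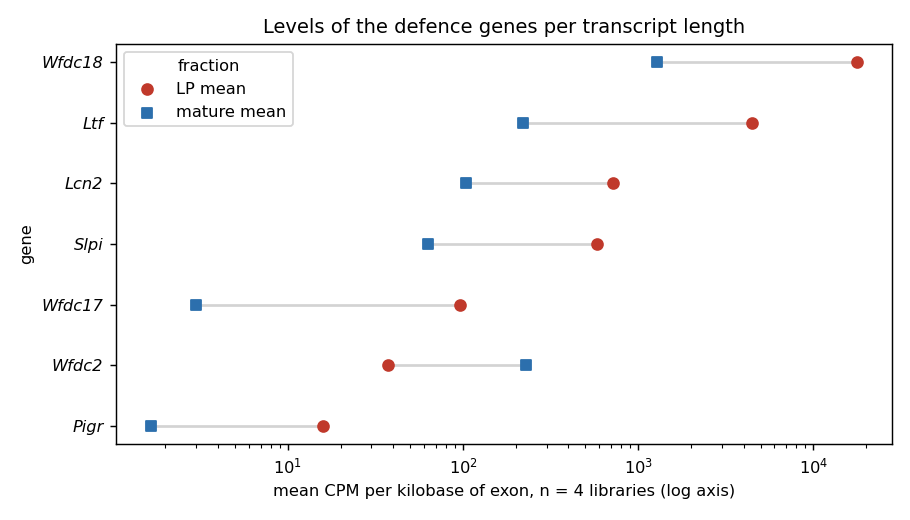
Mean CPM per kilobase of protein-coding exon of the 7 tested genes, on a log axis, in LP (red circles) and mature (blue squares) libraries, n = 4 each, joined by a grey line for each gene. Wfdc18 has the highest mean in both fractions (17790 and 1279), and Wfdc2 is the gene whose mature mean is to the right of its LP mean.

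Mature libraries differed in how much they held of the defence RNA that was higher in LP. Ltf in mature replicates 1 to 4 amounted to 1.31%, 2.98%, 8.12% and 7.40% of the LP mean, and Wfdc18 to 1.61%, 2.41%, 16.9% and 7.85%. Lcn2 amounted to 6.05%, 8.17%, 29.6% and 14.3%. For Ltf, Lcn2, Wfdc18, Slpi and Pigr, replicates 3 and 4 were both above replicates 1 and 2. Wfdc17 did not follow this order, with 2.48%, 5.14%, 3.39% and 1.48% of the LP mean.

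The LP genes used as checks of the sort varied with them. Kit stood at 6.51%, 6.28%, 27.2% and 11.2% of its LP mean in mature replicates 1 to 4, Elf5, a transcription factor of the alveolar lineage, at 11.8%, 14.9%, 51.6% and 20.2%, and Cd14 at 0.818%, 0.610%, 2.28% and 1.56%. The percentages were not the same for all genes within a library, and in mature replicate 3 they ran from 2.28% for Cd14 to 51.6% for Elf5. Sums of other marker lists also set mature replicates 1 and 2 apart from 3 and 4. In mature replicates 1 to 4 the luminal sum was 50128, 63349.5, 27657 and 29519 CPM. Of that list Epcam alone went the other way, at 1595, 1778.5, 1870 and 2287 CPM. The basal sum was 15.6, 15.8, 77.2 and 39.3 CPM, and the fibroblast and adipocyte sum 141.6, 180.2, 29.0 and 28.9 CPM. Most of the latter in replicates 1 and 2 was Dcn, at 132 and 154.2 CPM. Lum, of the same list, did not divide the libraries, at 2.67, 5.52, 3.61 and 5.27 CPM. The hormone-sensing sum, at 6887, 6545, 4798 and 6965 CPM, did not divide them in this way, and most of it came from Prlr. Esr1, Cited1, Ly6a and Areg were each lower in replicates 3 and 4 than in 1 and 2, while Prlr, Pgr and Foxa1 were not. The part of LP cells in the mature libraries in these values was not tested. Mature replicate 3 was also the lowest mature library for Wfdc2, at 89.1 CPM.

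**Figure D3:**
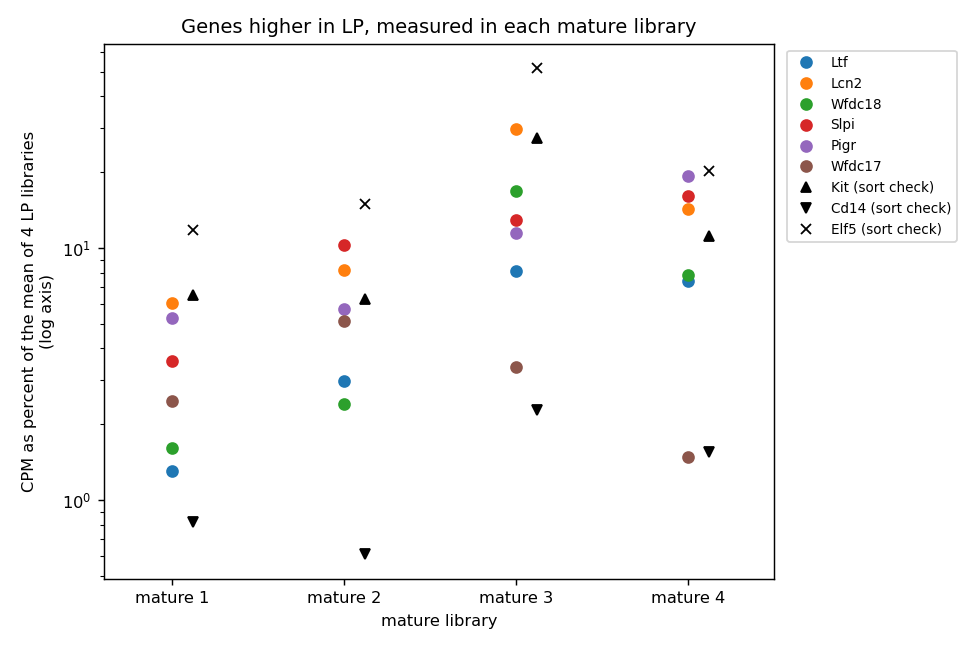
Level of 6 defence genes (coloured circles) and of the checks of the sort Kit, Cd14 and Elf5 (black symbols) in each mature library, as a percent of the mean of the 4 LP libraries, on a log axis. Ltf ranges from 1.31% to 8.12% and Lcn2 from 6.05% to 29.6%, both with the highest value in mature replicate 3.

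After subtraction of the mean of each fraction, the gene whose log2 CPM varied most like that of a defence gene over the 8 libraries was Tspan8 for Ltf, Npcd for Lcn2, Rapgef5 for Wfdc18, Pim1 for Wfdc17, Wdr66 for Slpi and Rpl31 for Pigr. These were picked as the highest of 12816 genes. Between fractions they did not all differ like their partners, as the log2 fold change was 3.12 for Tspan8, 0.41 for Rapgef5 and -0.99 for Rpl31.

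Further genes of the same defence systems were read from the same fit, in 4 lists compiled by function. Some of these genes passed the filter on low counts partly because they were high in a single fraction. Lbp, Wfdc12, Muc4 and Muc20 had no count in at least a single mature library, and Reg3g and Defb1 had few counts in LP. Their adjusted p-values and the counts per list are therefore a description. WAP-domain genes other than those above were mostly silent. Of 19 listed, 11 had no count and 2 passed the filter on low counts. Wfdc12 was higher in LP, at 40.7 to 61.2 CPM against 0 to 9.34 CPM in mature libraries (log2 fold change 3.75 ± 0.71 SE, edgeR adjusted p = 0.00398). Wfdc3 had 19.9 to 63.9 CPM in LP and 1.97 to 31.2 CPM in mature libraries, and did not pass (log2 fold change 1.21, edgeR adjusted p = 0.193), although it did with the replicate number as a block (adjusted p = 0.0331).

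Among 22 other secreted antimicrobial genes, 10 were tested, and 4 rose in LP while 2 were higher in mature cells, beside 10.9% and 13.8% of all tested genes in these directions. Trf, which encodes the iron carrier transferrin and is related to Ltf, had 11112.5 to 17980 CPM in LP and 286.9 to 2102 CPM in mature libraries, with a log2 difference of 4.06 ± 0.57 (SE, edgeR adjusted p = 0.000974). Chil1, a chitinase-like protein, rose by 4.79 on the log2 scale (edgeR adjusted p = 0.00378), and Ptx3, a pentraxin that marks microbes for uptake, by 2.89 (adjusted p = 0.00801). Lbp, which hands lipopolysaccharide to Cd14, was also higher in LP, at 9.15 to 26.4 CPM, with a log2 fold change of 3.99 (edgeR adjusted p = 0.0202). In mature cells Lbp had 0 to 3.90 CPM, and the adjusted p was 0.0561 without LP replicate 3.

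Reg3g and Defb1 were the antimicrobial genes of this list that were higher in mature cells. Reg3g, a lectin that kills Gram-positive bacteria in the intestine, had 0.971 to 2.76 CPM in LP and 16.0 to 104.2 CPM in mature libraries, with a log2 difference of -4.98 ± 0.64 (SE, edgeR adjusted p = 0.000649). Defb1, a beta-defensin, had 0.278 to 2.32 CPM in LP and 3.47 to 16.9 CPM in mature libraries, with a log2 fold change of -2.77 (edgeR adjusted p = 0.0145). The fractions did not overlap for either gene. Pglyrp1 and Pglyrp3, which bind bacterial peptidoglycan, did not pass the test, with log2 fold changes of -0.46 and -0.81.

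Of 19 genes of mucins and mucosal immunoglobulin transport, 18 were in the table and 8 were tested. In LP 4 were higher and in mature cells 2, beside the same shares of all tested genes. The mucin genes Muc1, Muc4, Muc15 and Muc20 were those higher in LP, while the mucin gene Muc13 was not (log2 fold change -1.83). Muc15 had 1619 to 2715 CPM in LP and 22.1 to 549.9 CPM in mature libraries (log2 fold change 3.27 ± 0.78 SE, edgeR adjusted p = 0.0121), and Muc1 had 364.6 to 684.2 CPM and 5.91 to 113.2 CPM (log2 fold change 3.41, adjusted p = 0.00522). Muc20 and Muc4 had log2 fold changes of 3.27 and 2.81 with adjusted p-values of 0.0411 and 0.0496 from edgeR, and both lost the call without any 1 library other than mature replicates 1 and 3, with adjusted p-values up to 0.0923 for Muc20 and 0.146 for Muc4. Without mature replicate 3 the log2 fold changes of Muc1, Muc4, Muc15 and Muc20 were 4.40, 4.50, 4.26 and 4.84.

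In mature cells Dmbt1 and Fcgrt were higher. Dmbt1, a secreted scavenger receptor that binds bacteria, had 755.4, 472.8, 0.433 and 316.9 CPM in mature replicates 1 to 4 and 0 to 30.6 CPM in LP. The fractions overlapped because mature replicate 3 was nearly without it, and the log2 fold change was -4.86 ± 1.45 (SE, edgeR adjusted p = 0.0315). The call was lost without any 1 library other than LP replicate 1 and mature replicate 3, with adjusted p-values up to 0.0885. With the replicate number as a block the log2 fold change of Dmbt1 was -5.07 (edgeR adjusted p = 0.000465). Fcgrt, the neonatal Fc receptor that carries IgG, had 31.7 to 42.3 CPM in LP and 60.8 to 123.0 CPM in mature libraries, with a log2 difference of -1.30 (edgeR adjusted p = 0.00297). Pigr and Fcgrt, the receptors for the transport of IgA and IgG, therefore differed in opposite directions. Fcgbp and Muc13 did not pass the test, with log2 fold changes of 1.62 and -1.83. With the replicate number as a block both passed, with log2 fold changes of 2.49 and -2.57 and edgeR adjusted p-values of 0.0106 and 0.0176.

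Of the acute-phase genes other than Saa1 and Saa2, 4 of 10 tested rose in LP and 3 were higher in mature cells, beside 10.9% and 13.8% of all tested genes. Lrg1 had 1793 to 3542 CPM in LP and 144.5 to 377.7 CPM in mature libraries (log2 fold change 3.48 ± 0.34 SE, edgeR adjusted p = 0.000224). Complement C3 rose by 3.19 on the log2 scale (edgeR adjusted p = 0.00141), the copper carrier ceruloplasmin (Cp) by 2.24 (adjusted p = 0.00275) and the metalloreductase Steap4 by 1.56 (adjusted p = 0.00474). The fibrinogen chains Fgb and Fgg and the haemoglobin-binding protein haptoglobin (Hp) were higher in mature cells. Fgg had 49.6 to 353.4 CPM in LP and 362.2 to 3864 CPM in mature libraries (log2 fold change -3.69 ± 0.75 SE, edgeR adjusted p = 0.00576, and -4.51 without LP replicate 1), Fgb had a log2 fold change of -4.10 (adjusted p = 0.00276) and Hp of -2.56 (adjusted p = 0.00218). Saa3, the form of serum amyloid A made outside the liver, had 1.16 to 11.9 CPM in LP and 6.89 to 45.2 CPM in mature libraries, and did not pass (log2 fold change -2.01, edgeR adjusted p = 0.107). It passed with the replicate number as a block (edgeR adjusted p = 0.00711). The log2 fold change was -3.31 without LP replicate 2 and -0.95 without mature replicate 2. Cfb showed a log2 fold change of -0.03.

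**Figure D4:**
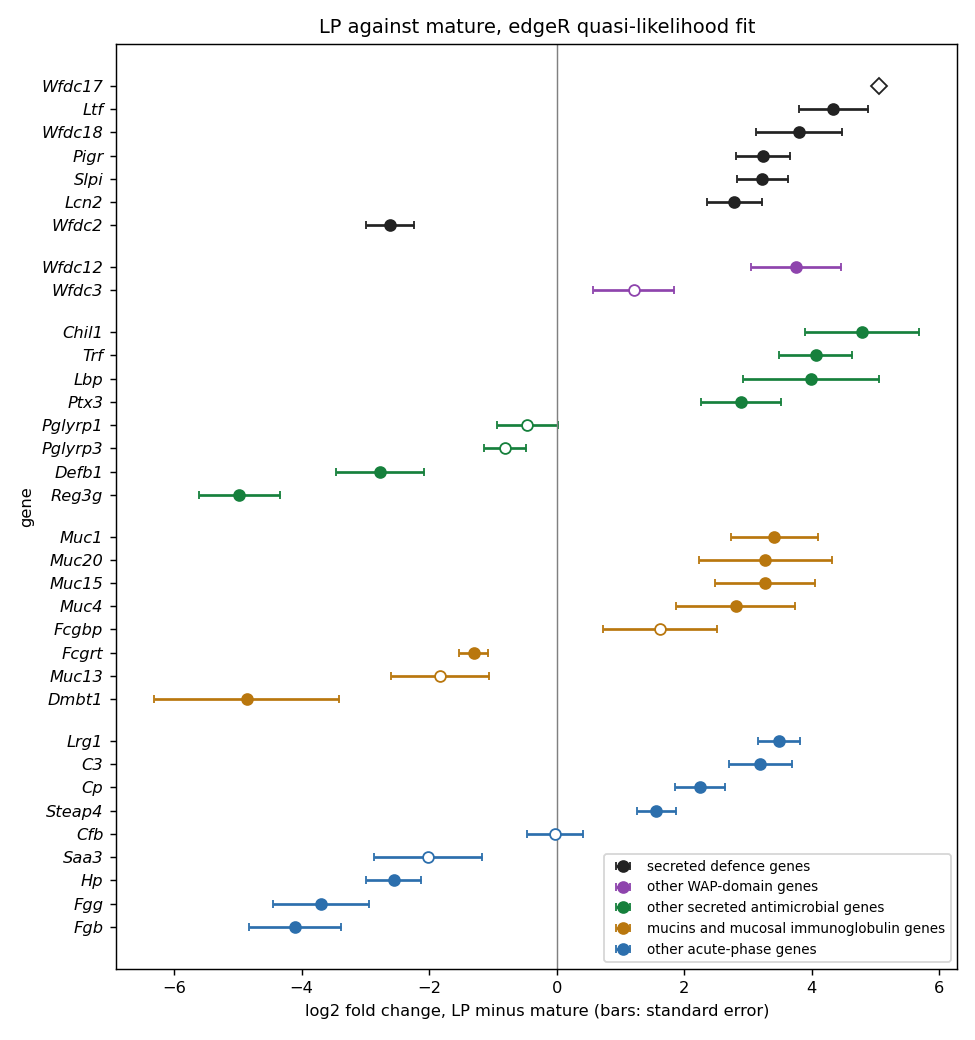
Log2 fold change, LP minus mature, of the secreted defence genes (black) and of the named genes of the 4 further lists, with bars for the standard error. Filled circles mark an adjusted p under 0.05, open circles genes that did not pass, and the open diamond Wfdc17, which was not tested. Values range from 5.05 for Wfdc17 to -4.98 for Reg3g, and each list but the WAP-domain genes other than those of the black set holds filled points on both sides of 0.

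The median log2 fold change over the 6 tested defence genes other than Wfdc17 was 3.23. It was 2.48 for the 2 tested WAP-domain genes, 0.41 for the 10 antimicrobial genes, 2.21 for the 8 mucin and immunoglobulin transport genes, 0.77 for the 10 acute-phase genes, and 0 over all 12816 genes tested. These medians leave out the genes that did not pass the filter on low counts, and some genes passed it through a single fraction. The genes and lists were chosen with earlier results of these data known, so the medians are a description.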

How the data were processed

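Luminal cells sorted by c-Kit gave 4 LP and 4 mature RNA libraries, grouped by the sample titles. The authors trimmed the reads of 51 bases (cutadapt) and aligned them by bowtie2, which does not split reads across introns, to the mouse genome mm10, and deposited raw counts per gene as whole numbers without normalization. The submitters' processing notes name cutadapt 4.2 and Bowtie2 2.3.5.1, while the methods of the study name another Bowtie2 version. The counting program, its annotation and its use of strand are not given in the sources used here. Of 24594 Entrez IDs, 24570 matched the RefSeq table of GRCm38.p6.

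Counts were analysed with edgeR 4.0.16 in R 4.3.3, with TMM normalization, filterByExpr by fraction (12816 genes left) and the quasi-likelihood test with Benjamini-Hochberg adjustment over all genes tested. A positive log2 fold change is higher in LP, its standard error is its size divided by the square root of F, and CPM used the normalized library sizes. The common biological coefficient of variation was 0.393. The test was checked on simulated data. Lengths are unions of protein-coding exons in GENCODE (mm10), and shared stretches were searched in its transcripts on both strands. DESeq2 1.42.0 and other settings were alternatives. Ptprc and the markers without a count were named after their values were seen.

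The 10 genes and the lists were chosen with earlier results of these data known. Named were the 10 genes, up to 4 genes passing in each direction and up to 2 not passing per list (by fold change and by level), the gene most alike each of the 7 that passed the filter (that for Wfdc2 is not reported here), and Kit, Cd14, Elf5, Pgr and Areg. The marker lists whose ranges are not given in the results were luminal (14030 to 15592 CPM in LP, 27657 to 63349.5 CPM in mature libraries, summed), hormone-sensing (693.8 to 1444 and 4798 to 6965), luminal progenitor (13574 to 20040 and 243.7 to 966.2), basal (18.2 to 49.5 and 15.6 to 77.2) and fibroblast and adipocyte (13.7 to 43.9 and 28.9 to 180.2).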

Additional observations from a re-analysis of the deposited data

Results flagged for a closer look

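In 81 groups of 4 libraries examined for a library far from the others, 6 exceeded Dixon's critical value for the gap divided by the range. Independent groups of normally distributed values would give about 4.05. Some groups held CPM at or near 0 and all came from the same libraries, so that number is only a rough guide. Wfdc2 had 89.1 CPM in mature replicate 3 against 283.6, 271.1 and 255.7 CPM in the other mature libraries. Saa1 had 2.16 CPM in LP replicate 2, where the other LP libraries held 0 to 0.290 CPM. Saa3, another serum amyloid A gene, was highest in replicate 2 of both fractions, with 11.9 CPM in LP replicate 2 against 1.16, 1.99 and 2.08 CPM, and 45.2 CPM in mature replicate 2 against 6.89, 8.81 and 9.64 CPM. Lbp had 3.90 CPM in mature replicate 3 against 0, 0 and 0.151 CPM. Muc4 had 37.5 CPM in LP replicate 3 against 12.8, 15.5 and 11.8 CPM. The cause of these values was not tested.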

How the results depend on the processing

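Each comparison was repeated in 14 alternative analyses, 6 with all libraries (RLE factors, upper-quartile factors, DESeq2, edgeR's likelihood ratio test, no filter, a replicate block) and 8 without 1 library. The 6 tested defence genes other than Wfdc17 kept their direction and an adjusted p under 0.05 in all 14, with log2 fold changes from 4.03 to 4.70 for Ltf, 2.54 to 3.42 for Lcn2, 3.47 to 4.68 for Wfdc18, 2.94 to 3.51 for Slpi, 2.99 to 3.73 for Pigr and -2.89 to -2.46 for Wfdc2. The log2 fold change of Wfdc17 ran from 4.84 to 5.35. Over all genes the count passing was 3161, between 2338 and 3414 without 1 library.

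The count of mucin and immunoglobulin transport genes passing, 6, ran from 3 to 7 without 1 library. That of the other WAP-domain genes, 1, was 2 with no filter and 2 with the replicate block, and ran from 1 to 2 without 1 library. Cfb, which did not pass, changed sign to 0.009 with upper-quartile factors and 0.035 with no filter, and ran from -0.57 to 0.24 without 1 library. Without mature replicate 3 the log2 fold change was 7.85 for Lbp, which depends on the count added to mature libraries at or near 0, 6.23 for Chil1, 4.93 for Trf, 2.83 for Cp, 3.67 for Kit, 2.70 for Elf5 and 2.75 for Fcgbp (adjusted p = 0.044 from edgeR), and without mature replicate 4 it was 4.76 for Wfdc12. Without LP replicate 1 it was -5.69 for Dmbt1 and -4.51 for Fgg. Saa3 passed without LP replicate 2 (-3.31, adjusted p = 0.0213 from edgeR) but had -0.95 without mature replicate 2 (adjusted p = 0.429 from edgeR), and Muc13 passed without LP replicate 1 (-2.82, adjusted p = 0.0267). Muc13 also passed the likelihood ratio test (adjusted p = 0.0494 from edgeR) and Saa3 the DESeq2 test (adjusted p = 0.0354), while Muc20 lost the call in DESeq2 (adjusted p = 0.0776) and Muc4 with no filter (adjusted p = 0.0555 from edgeR). The causes were not tested.

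With the replicate block 3027 genes passed, Wfdc18 had a log2 fold change of 4.41 and Ltf of 4.63, and Fcgbp (2.49), Muc13 (-2.57), Saa3 (-2.18) and Wfdc3 (1.56) passed, with edgeR adjusted p-values of 0.0106, 0.0176, 0.00711 and 0.0331. Across genes and after subtraction of fraction means, an LP and a mature library with the same number correlated at 0.062 to 0.148. With different numbers they correlated at -0.156 to 0.078. Not every same-numbered pair exceeded 0.1, the level set for a pair. The descriptions give same-numbered libraries a number in common whose meaning is not stated, so the unpaired fit was kept and whether the libraries are pairs could not be settled. In 7 of 8 libraries the best match was the one with its own number. At this depth, levels under 0.111 CPM over the LP libraries and 0.123 CPM over the mature libraries could not be told from 0.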
